A study of Mus musculus with 16 samples.

Results

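Connexins are the proteins of gap junctions, and 7 of their genes were followed across the postnatal mouse cochlea: *Gjb2*, *Gjb6*, *Gja1*, *Gjb1*, *Gjc3*, *Gjc1* and *Gja4*. They were chosen by name as epithelial, fibrocyte, glial and vascular connexins, with earlier results of these arrays known, that for *Gjc3* at P5 included. Each is represented by the only probeset that the platform table pairs with its symbol alone, and they are 7 of 19937 genes named in that way.

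Connexins assemble in the plasma membrane into hemichannels, which dock with those of a neighbouring cell and let ions, second messengers and small metabolites pass between the cytoplasms. In the cochlea an epithelial network joins the supporting cells around the hair cells, and a connective tissue network joins the fibrocytes of the spiral ligament and limbus with the stria vascularis. Both networks are built mainly from the products of *Gjb2* and *Gjb6* and are held to carry potassium and metabolites away from and back to the hair cells, and recessive mutations in human *GJB2* are a common cause of inherited deafness. Schwann cells carry other connexins in their myelin, and blood vessels and bone carry others again.

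The study asked what happens when the miR-183 cluster, a set of 3 miRNAs that hair cells normally make, is also made in the cells around them. Tg1MDW/1MDW mice are homozygous for a transgene in which the core human promoter of the glial gene GFAP drives *Mir183*, *Mir96* and *Mir182*, on the FVB/NCrl background, and they were compared with WT littermates. RNA was taken from the microdissected organ of Corti at postnatal day 5 (P5-OC, 5 Tg1MDW/1MDW and 5 WT samples) and from the cochlea at day 18 (P18-cochlea, 3 and 3 samples), with 1 Affymetrix MoGene array per sample. In that line the product of the transgene was seen by in situ hybridization at P18 in supporting cells, spiral limbus cells and Schwann cells, but was not clearly told from WT at P5, and all its carriers go back to 1 founder, so an effect of the insertion site cannot be told apart from that of the miRNAs.

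The cluster acts through a 7-base seed at bases 2 to 8 of each miRNA, shown here in capitals because it is the part by which a miRNA chiefly recognises its targets. The mature sequences are those of RefSeq, from the minus strand of mouse chromosome 6 in build GRCm38.p6, at chr6:30165962-30165986 for miR-182, chr6:30169506-30169528 for miR-96 and chr6:30169711-30169732 for miR-183.
mmu-miR-182-5p: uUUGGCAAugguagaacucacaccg
mmu-miR-96-5p: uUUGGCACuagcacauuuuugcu
mmu-miR-183-5p: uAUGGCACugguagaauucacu
The seeds of miR-182 and miR-96 are alike at 6 of 7 positions, those of miR-96 and miR-183 at 6 and those of miR-182 and miR-183 at 5. Target sites in the connexin transcripts were not analysed here.

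Signals are deposited log2 values, on which a difference of 1 is a change of 2-fold. Differences were tested with limma over all 34760 probesets, and a gene was called at a Benjamini-Hochberg adjusted p under 0.05. The transgene was plain in the arrays. The log2 signal of *Mir182* at P5 lay between 7.77 and 8.65 with the transgene and between 4.25 and 5.46 without it, and at P18 between 7.95 and 7.98 against 3.83 to 3.92. The names are those of the platform table, and the lists of the study give *Mir182* and *Mir96* the other way round for these probesets. *Mir96* was higher by 3.40 at P5 and 3.36 at P18, *Mir183* by 3.31 and 3.47, and *Prm1*, part of the transgene, by 3.68 and 2.50. Array medians ran from 6.51 to 6.63 at P5 and from 6.33 to 6.36 at P18. The sample titles call the arrays biological replicates, but nothing states whether each holds RNA of 1 animal. The p-values thus measure the spread between these samples, which may differ from that between animals. In whole tissue, fewer cells of a type and less RNA per cell cannot be told apart.

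Of the 7 connexins, only *Gjc3* was called between the genotypes, and it was called in opposite directions at the 2 ages. It fell 1.89-fold in the P5-OC and rose 1.55-fold in the P18-cochlea of Tg1MDW/1MDW mice. Thus 1 of 7 members was called lower at P5, where 0.858% of all genes were, and 1 of 7 was called higher at P18, where 0.532% were. For the difference between the 2 genotype effects, 1 of 7 was called higher at P18, against 0.818% of all genes (163 genes, and 96 to 354 with 1 array left out). The median log2 difference of the members was 0.02 at P5 and 0.16 at P18, beside -0.03 and -0.02 over all genes.

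**Figure D1:**
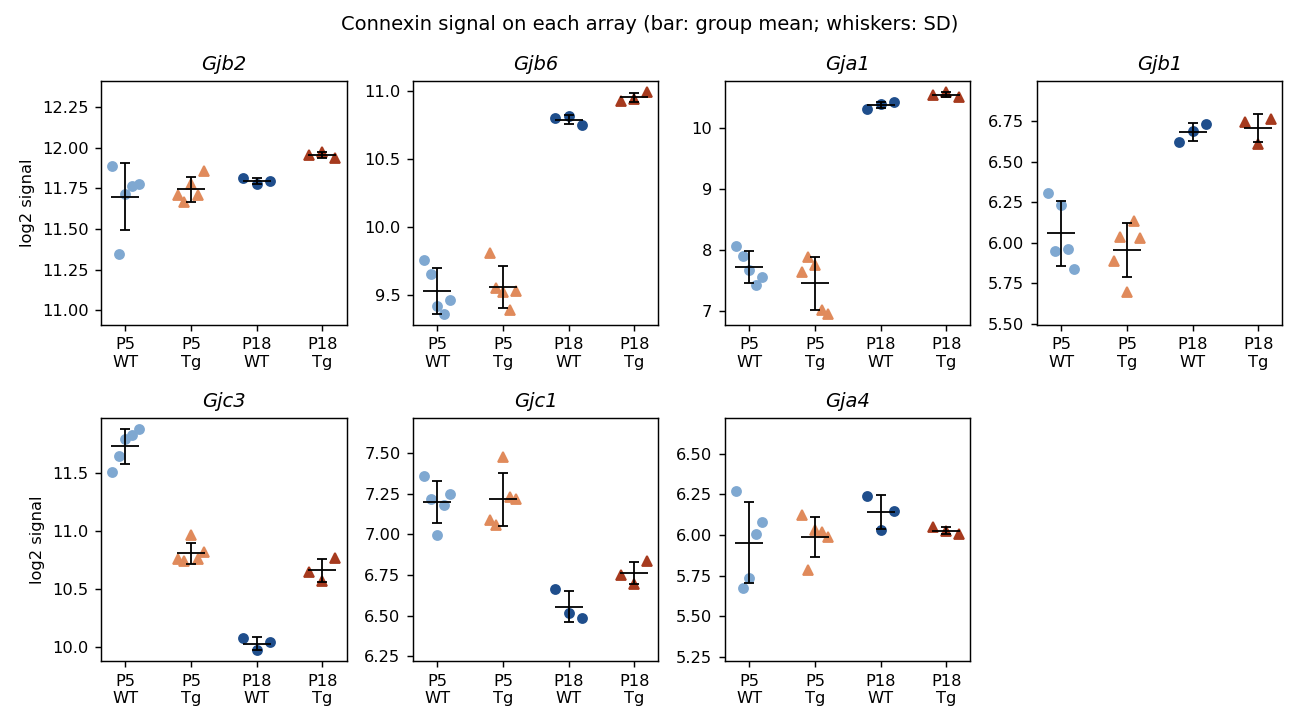
Log2 signal of the 7 connexin genes on each of 16 arrays, with 1 panel per gene and its own vertical scale; circles are WT, triangles Tg1MDW/1MDW, long bars group means and whiskers SD. *Gjc3* is lower in Tg1MDW/1MDW than in WT on all P5-OC arrays and higher on all P18-cochlea arrays, while *Gja1* and *Gjb6* separate the ages and tissues far more than the genotypes.

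*Gjb2* (probeset 10420362) encodes the connexin that, with that of *Gjb6*, makes up most gap junctions of cochlear supporting cells and fibrocytes. Its signal in the P5-OC was 11.71, 11.67, 11.78, 11.71 and 11.86 in Tg1MDW/1MDW and 11.89, 11.35, 11.71, 11.76 and 11.78 in WT. The groups overlapped, and the lowest of these 10 values was that of WT replicate 2. In the P18-cochlea it was 11.95, 11.98 and 11.94 in Tg1MDW/1MDW and 11.82, 11.77 and 11.80 in WT, so that every Tg1MDW/1MDW array was above every WT array. The difference was 0.05 at P5 (95% interval -0.13 to 0.22, limma adjusted p = 0.81) and 0.16 at P18 (-0.07 to 0.39, adjusted p = 0.77). Group means of *Gjb2* lay between 11.70 and 11.96 in the 4 groups, and a change of more than 1.5-fold lies outside both intervals.

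*Gjb6* (10420366), the neighbour of *Gjb2* on chromosome 14, encodes the partner subunit. At P5 its signal was 9.81, 9.55, 9.52, 9.39 and 9.53 in Tg1MDW/1MDW and 9.76, 9.66, 9.42, 9.36 and 9.46 in WT, with a difference of 0.03 (-0.16 to 0.21, limma adjusted p = 0.88). At P18 it was 10.93, 10.95 and 10.99 in Tg1MDW/1MDW and 10.81, 10.82 and 10.75 in WT, with a difference of 0.16 (-0.08 to 0.40, adjusted p = 0.77). As with *Gjb2*, the genotypes overlapped at P5 and did not at P18. The 2 neighbours did not move together from sample to sample in the P5-OC (Pearson r = -0.11 over 10 arrays), as a description of arrays that share dissections and genotypes. Over the 6 P18-cochlea arrays, where the genotypes lay apart for both genes, r was 0.90.

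*Gja1* (10363173) encodes the most widespread connexin of the body, present in cochlear fibrocytes and in osteoblasts. In the P5-OC its signal was 7.64, 7.89, 7.75, 7.01 and 6.95 in Tg1MDW/1MDW and 8.06, 7.90, 7.68, 7.41 and 7.55 in WT. Replicates 4 and 5 of Tg1MDW/1MDW were the lowest of the 10, but replicates 1 to 3 lay within the range of WT, and the difference of -0.28 had an interval of -0.64 to 0.09 (limma adjusted p = 0.42). In the P18-cochlea the values were 10.54, 10.60 and 10.52 in Tg1MDW/1MDW and 10.33, 10.40 and 10.43 in WT, a difference of 0.17 (-0.30 to 0.64, adjusted p = 0.92).

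Markers of bone and fibrocytes differed between P5-OC samples of the same genotype. The mean log2 signal of 6 osteoblast markers was 9.49 and 9.92 in replicates 1 and 2 of Tg1MDW/1MDW and 9.47 and 9.58 in those of WT, against 8.07 to 8.19 in the other Tg1MDW/1MDW samples and 8.33 to 8.54 in the other WT samples. The mean of 10 fibrocyte markers was raised in the same 4 samples, at 10.42 to 10.51 against 9.85 to 10.04. Within WT, these replicates also had the highest *Gja1* and the highest *Gjb6*. In Tg1MDW/1MDW they had the highest *Gjb6*, but *Gja1* was higher in replicate 3 (7.75) than in replicate 1 (7.64). Without replicates 1 and 2 of both groups, the difference at P5 was -0.31 for *Gja1* (limma adjusted p = 0.41) and 0.07 for *Gjb6* (adjusted p = 0.65). With the osteoblast level as a covariate, it was -0.23 for *Gja1* (adjusted p = 0.33) and 0.05 for *Gjb6* (adjusted p = 0.72).

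**Figure D2:**
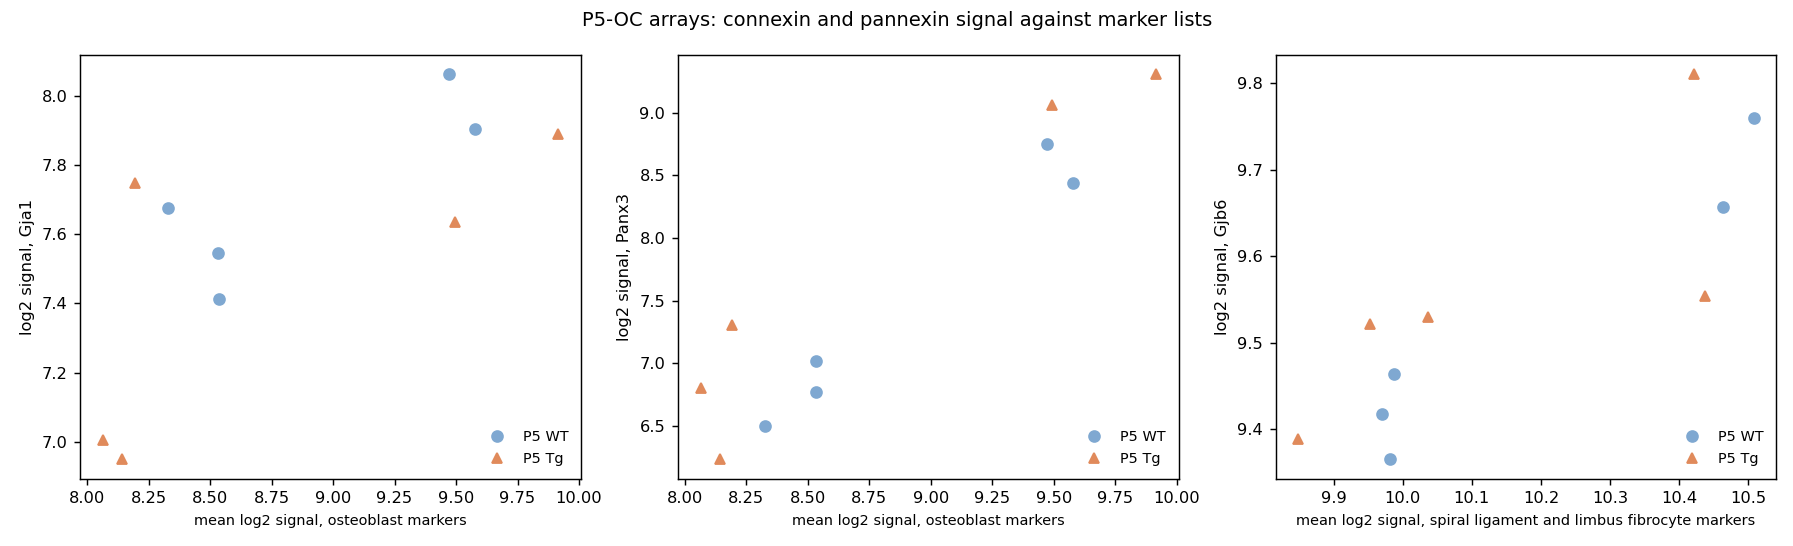
Log2 signal of *Gja1*, *Panx3* and *Gjb6* on the 10 P5-OC arrays against the mean log2 signal of 6 osteoblast markers or 10 fibrocyte markers; circles are WT and triangles Tg1MDW/1MDW, 1 point per array. In both genotypes 2 arrays lie to the right, at an osteoblast level of 9.47 or more, and *Panx3* is between 8.43 and 9.31 there and between 6.23 and 7.31 elsewhere.

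At P18, where 5 of 7 members (*Gjb2*, *Gjb6*, *Gja1*, *Gjc3* and *Gjc1*) had every Tg1MDW/1MDW array above every WT array, 18.1% of all genes did so too. Of these 5 only *Gjc3* passed the test, which shares 1 estimate of the spread over all groups, the P5 arrays included. The intervals and p-values at P18 thus depend in part on the spread at P5. None of the others was called in 17 alternatives. Their lowest limma adjusted p at P18 was 0.11 for *Gjb2*, 0.16 for *Gjb6*, 0.17 for *Gja1* and 0.086 for *Gjc1*. Other lists were separated in the same samples. The mean of 12 supporting cell markers was 8.75 to 8.79 in Tg1MDW/1MDW and 8.64 to 8.66 in WT, but 5 of the 12 had a difference below 0, and without *Fabp7* the mean was 8.57 to 8.62 against 8.54 to 8.56. That of the 10 fibrocyte markers was 10.44 to 10.49 against 10.32 to 10.34. The mean of 8 skeletal muscle markers was 8.77 to 8.85 against 6.20 to 6.21, with all 8 called higher, where 0.532% of all genes were. That of 8 cerebellar granule neuron markers was 6.47 to 6.51 against 7.25 to 7.31, with 6 of 8 called lower, where 18 of 19937 genes were. The mean of 6 osteoblast markers was lower, at 10.98 to 11.03 against 11.09 to 11.16, and that of 7 oligodendrocyte markers higher, at 7.02 to 7.10 against 6.91 to 6.98. The part of these lists in the small P18 differences of the connexins was not tested.

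*Gjc3* (10534960) encodes Cx29, a connexin of the innermost myelin layers of Schwann cells. At P5 the Tg1MDW/1MDW arrays read 10.77, 10.74, 10.97, 10.76 and 10.82 and the WT arrays 11.51, 11.65, 11.80, 11.83 and 11.88. The groups were far apart, and 1 of 7 members, against 1.79% of all genes, had every Tg1MDW/1MDW array below every WT array. The log2 difference was -0.92 (SE 0.08, 95% interval -1.08 to -0.76, limma adjusted p = 7.5e-06).

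In the P18-cochlea the order was turned. *Gjc3* had values of 10.65, 10.57 and 10.77 in Tg1MDW/1MDW and 10.08, 9.97 and 10.05 in WT, again with no overlap. The difference was 0.63 (SE 0.10, interval 0.42 to 0.84, limma adjusted p = 0.0059). Without Tg1MDW/1MDW replicate 3 at P18 the difference was 0.58 and the limma adjusted p was 0.052, so that the call was lost. Over all genes, leaving out any single P18 array lowered the number called higher at P18 from 106 to between 61 and 71. The effects at the 2 ages differed by 1.55 (SE 0.13, interval 1.28 to 1.82, adjusted p = 6e-06).

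Ordered by level, *Gjc3* was highest in the WT P5-OC (mean 11.73 ± 0.15, SD, n = 5), then in the Tg1MDW/1MDW P5-OC (10.81 ± 0.09, n = 5), the Tg1MDW/1MDW P18-cochlea (10.67 ± 0.10, n = 3) and the WT P18-cochlea (10.03 ± 0.05, n = 3). Only the 2 Tg1MDW/1MDW groups overlapped. In the P5-OC, the mean of 3 Y-linked genes was 8.61 to 8.96 on 1 Tg1MDW/1MDW and 4 WT arrays and 3.90 to 4.06 on the others, so the Y-linked level was not balanced between the genotypes. At P18 it was 7.65 to 7.66 in Tg1MDW/1MDW and 7.22 to 7.34 in WT, on every array between the 2 levels seen at P5. The reason was not tested. With that level as a covariate the *Gjc3* difference was -0.86 at P5 (limma adjusted p = 0.00053) and 0.62 at P18 (adjusted p = 0.0087). The Tg1MDW/1MDW sample with the high Y-linked level, replicate 1, had a *Gjc3* of 10.77, and the WT sample with the low one, also replicate 1, had 11.51.

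Listed myelin genes fell beside *Gjc3* at P5, and none of that list was called beside it at P18. Outside the list, the study reports *Pmp2*, a peripheral myelin protein, as lower at P5 and higher at P18, the directions of *Gjc3*. Of 12 listed Schwann cell and myelin markers 9 were measured. At P5, 8 of these were called lower, where 0.858% of all genes were, with a median log2 difference of -1.09 over the 9. *Mag*, an adhesion protein that faces the axon, differed by -2.23 (limma adjusted p = 4.7e-08), *Cldn19*, which seals the Schwann cell membrane at paranodes, by -2.03, *Pllp*, a myelin membrane protein, by -1.73, and *Egr2*, the transcription factor that drives Schwann cells to myelinate, by -1.59. *Sox10*, a transcription factor of all Schwann cells, was the ninth and differed by -0.14 (adjusted p = 0.47). At P18 none of the 9 was called (limma, 1 at an unadjusted p under 0.05) and their median was 0.09. These lists were chosen with earlier results of the same arrays known, so their direction at P5 is not independent evidence.

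By array, the mean of these 9 markers was at P5 8.08 to 8.49 in Tg1MDW/1MDW and 9.56 to 9.66 in WT, and at P18 9.45 to 9.58 against 9.41 to 9.47. Over both WT groups it ran from 9.41 to 9.66, while *Gjc3* was lower by 1.70 in the WT P18-cochlea. At P18, 1 supporting cell marker passed in the same direction as *Gjc3*: *Fabp7*, a fatty acid binding protein of supporting cells and immature glia, with a difference of 0.94 (limma adjusted p = 1.3e-05) and values of 10.69 to 10.71 in Tg1MDW/1MDW and 9.72 to 9.78 in WT.

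*Gjb1* (10601161) encodes Cx32, the other connexin of Schwann cell myelin, mutated in an X-linked form of Charcot-Marie-Tooth neuropathy. Its log2 signal at P5 was 5.88, 6.03, 5.70, 6.13 and 6.03 in Tg1MDW/1MDW and 6.31, 5.95, 6.23, 5.96 and 5.84 in WT. The groups overlapped widely, and the difference was -0.10 (interval -0.31 to 0.11, limma adjusted p = 0.62). At P18 it was 6.75, 6.61 and 6.76 in Tg1MDW/1MDW and 6.62, 6.69 and 6.73 in WT, a difference of 0.02 (-0.25 to 0.30, adjusted p = 0.99). This probeset was dim, below the median of its array on 10 of 16 arrays, those of the P5-OC, which limits what could be seen of a fall.

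**Figure D3:**
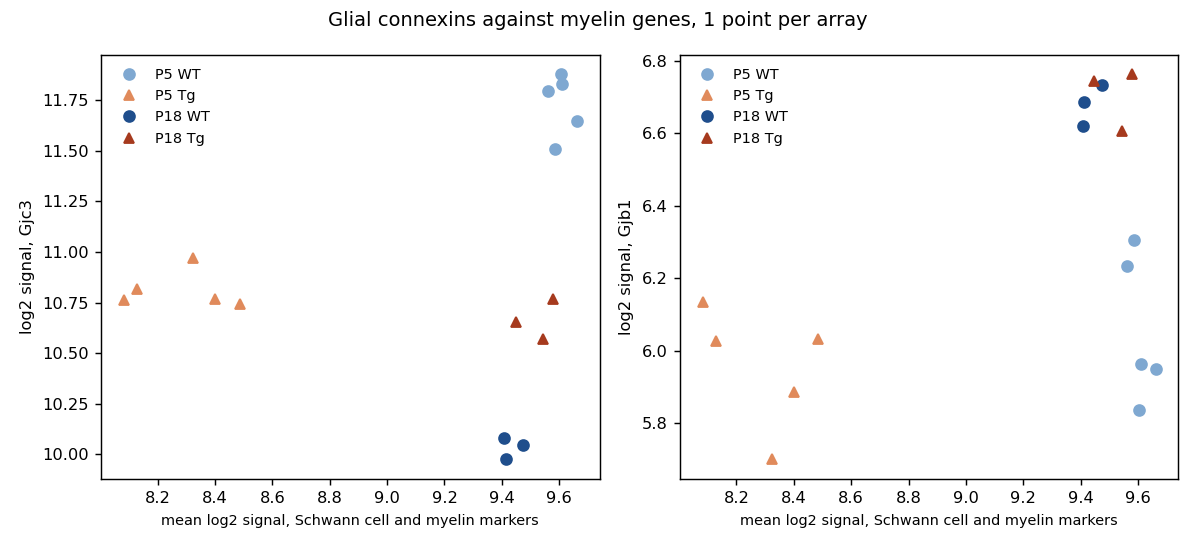
Log2 signal of *Gjc3* (left) and *Gjb1* (right) against the mean log2 signal of 9 Schwann cell and myelin markers, 1 point per array; circles are WT and triangles Tg1MDW/1MDW, pale for the P5-OC and dark for the P18-cochlea. The P5-OC Tg1MDW/1MDW arrays lie to the left at 8.08 to 8.49 with a low *Gjc3*, whereas *Gjb1* of those arrays covers much of the same range as in WT at P5.

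The promoters of *Gjc3* and *Gjb1* are shown because *Egr2* fell at P5 by 1.59 and *Sox10* did not pass, and both factors are known regulators of myelin genes that include *Gjb1*. That of *Gjb2* is shown for contrast, as an epithelial member. RefSeq windows of build GRCm38.p6 matched 6 of 7 members (9 windows, 4 of them for *Gjb1*), and not *Gjc1*. Both strands were searched in the 250 bases before each start. The SOX core was spelled ACAAAG, and a further form of it, searched apart from the first, was spelled ACAATG. For the EGR core the letters searched were GTGGGCG and nothing else. A GC box was taken to be GGGCGG on either strand of the window. For the TATA box, which lies near some starts, the letters were TATAAA. Capitals mark matches on either strand, and each stretch of 100 bases is written along its gene, at chr14:57104823-57104922 (minus strand, from 220 to 121 bases before the start) for *Gjb2*, at chr5:137963119-137963218 (minus strand, from 120 to 21) for *Gjc3*, and at chrX:101383612-101383711 (plus strand, from 120 to 21) for *Gjb1*.
Gjb2: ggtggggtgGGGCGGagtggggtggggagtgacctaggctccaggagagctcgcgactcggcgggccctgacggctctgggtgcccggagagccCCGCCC
Gjc3: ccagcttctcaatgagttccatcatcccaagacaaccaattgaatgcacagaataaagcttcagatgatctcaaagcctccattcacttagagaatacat
Gjb1: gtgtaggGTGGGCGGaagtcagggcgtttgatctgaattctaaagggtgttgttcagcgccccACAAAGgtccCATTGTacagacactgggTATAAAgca

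The stretch of *Gjb1* is taken from the 4th of its windows, the last along the chromosome, which also holds the most matches. That window held the EGR core 113 bases before the start, overlapping a GC box. It also held both SOX cores at 57 and 47 bases, the latter on the other strand, and a TATA box at 29. Of the other *Gjb1* windows, 1 held ACAAAG and the remaining ones held no match. Among all 32851 windows, 7.0% held the EGR core, 16.5% ACAAAG, 10.7% ACAATG, 32.7% the GC box and 12.4% the TATA box. None of these letters was found in the 250 bases before *Gjc3*, *Gjb6* or *Gja1*, and *Gjb2* held the GC box at 2 places. A match is a string of letters and shows no binding.

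*Gjc1* (10391762) and *Gja4* (10516481) encode connexins of vessel walls, the former in smooth muscle and pericytes as well as early neurons, the latter mainly in endothelium. *Gjc1* had a signal of 7.09, 7.06, 7.48, 7.23 and 7.22 in Tg1MDW/1MDW and 7.36, 7.22, 6.998, 7.18 and 7.25 in WT at P5, and of 6.75, 6.70 and 6.83 against 6.67, 6.52 and 6.48 at P18. The genotypes overlapped at P5 and were apart by 0.03 at P18, with differences of 0.02 (interval -0.17 to 0.20, limma adjusted p = 0.94) and 0.21 (-0.03 to 0.44, adjusted p = 0.66).

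*Gja4* was dim, below the median of its array on 16 of 16 arrays. Its signal was 6.12, 5.78, 6.03, 6.02 and 5.99 in Tg1MDW/1MDW and 6.27, 5.67, 5.73, 6.01 and 6.08 in WT at P5, and 6.05, 6.02 and 6.01 against 6.24, 6.03 and 6.15 at P18. All 4 groups overlapped, with differences of 0.04 (-0.19 to 0.26, limma adjusted p = 0.88) and -0.11 (-0.40 to 0.17, adjusted p = 0.90).

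**Figure D4:**
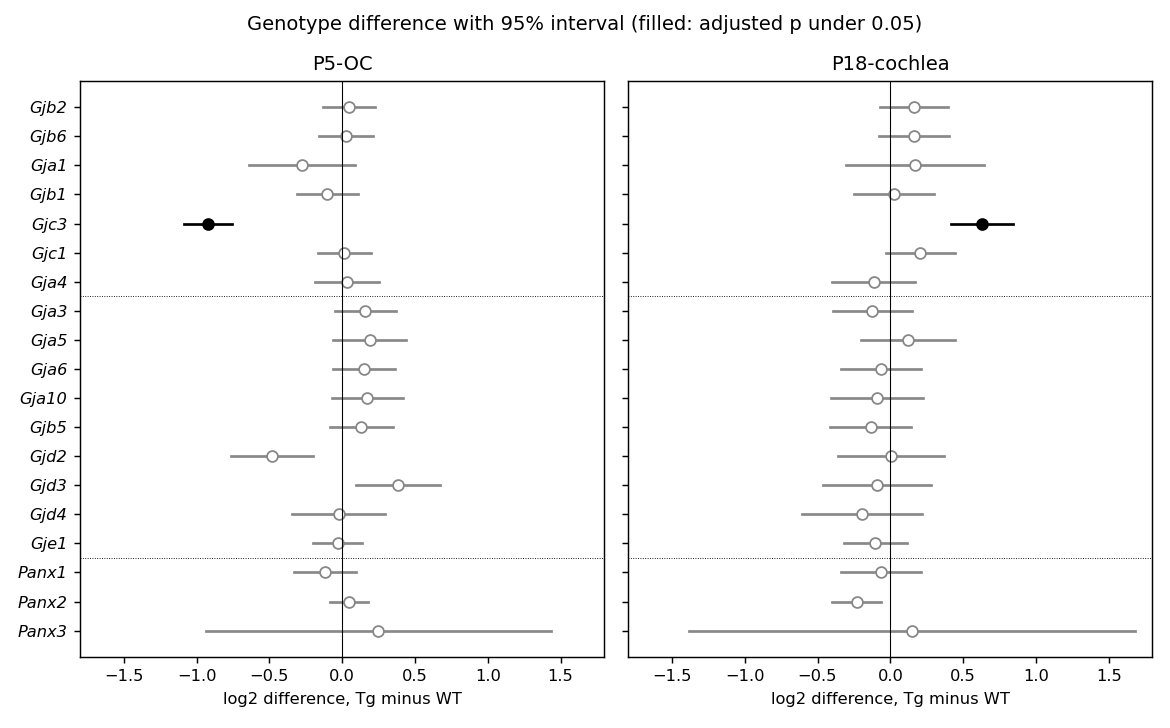
Log2 difference between Tg1MDW/1MDW and WT with its 95% interval in the P5-OC (left) and P18-cochlea (right) for the 7 connexins, 9 further connexins and 3 pannexins, which dotted lines part; filled points passed at an adjusted p under 0.05. Only *Gjc3* is filled, at -0.92 on the left and 0.63 on the right, and the interval of *Panx3* is the widest. All groups share 1 estimate of the spread. The SD of *Panx3* was 1.02 in WT and 1.37 in Tg1MDW/1MDW at P5, but 0.09 and 0.11 at P18.

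Further members of the family were read in the same way. Of 9 further connexins, each with a probeset of a single symbol, none was called at P5 or P18 (limma, 2 and 0 at an unadjusted p under 0.05). *Gja10* and *Gje1* were below the lower quartile of their array on 16 of 16 arrays. *Gjd2*, the connexin of electrical synapses between neurons, had values of 5.50 to 5.93 in Tg1MDW/1MDW and 5.84 to 6.56 in WT at P5, with a difference of -0.48 (adjusted p = 0.13). *Gjd3* was 7.18 to 7.94 against 7.12 to 7.67, with a difference of 0.38 (adjusted p = 0.22). Neither passed, and the genotypes overlapped for each gene.

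The 3 pannexins form channels in single membranes and are not related to connexins in sequence. None was called between the genotypes (limma, 0 at P5 and 1 at P18 at an unadjusted p under 0.05). *Panx2* differed by -0.23 at P18 (limma adjusted p = 0.33) with values of 7.96 to 8.03 in Tg1MDW/1MDW and 8.18 to 8.26 in WT, and *Panx1* by -0.12 at P5 (adjusted p = 0.56). *Panx3*, a pannexin of osteoblasts and chondrocytes, was 9.06, 9.31, 7.31, 6.80 and 6.23 in Tg1MDW/1MDW and 8.75, 8.43, 6.498, 6.77 and 7.02 in WT at P5. The high values were those of replicates 1 and 2 in both genotypes, the samples with the high osteoblast level.

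Genes that work beside gap junctions were not called between the genotypes either. Of 8 measured connexin partners and trafficking genes none was called at P5 or P18 (limma, 0 and 1 at an unadjusted p under 0.05). Of 8 measured genes of potassium recycling none was (2 and 2 at an unadjusted p under 0.05). The nearest was *Kcnj10*, a potassium channel of supporting cells, satellite glia and the stria vascularis, with a difference of -0.39 at P5 (limma adjusted p = 0.056) and 0.11 at P18 (adjusted p = 0.88).

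Between the P5-OC and the P18-cochlea, a large share of all genes was called, so that the counts of connexins called are no result about them, and only the sizes are described. Age and dissected tissue change together here and cannot be told apart. In WT, 3 of 7 members were called higher in the P18-cochlea (*Gja1*, *Gjb6* and *Gjb1*) and 2 lower (*Gjc3* and *Gjc1*), where 25.0% and 25.1% of all genes were called. In Tg1MDW/1MDW 3 were called higher and 1 (*Gjc1*) lower, where 28.4% and 26.8% of all genes were called. The medians of the arrays were lower at P18 by 0.20 in WT and 0.22 in Tg1MDW/1MDW, and changes of that size depend on the scaling.

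*Gja1* had the largest of these differences. It was higher by 2.67 in the WT P18-cochlea, or 6.34-fold (SE 0.20, limma adjusted p = 1.8e-08), and by 3.11 in Tg1MDW/1MDW (adjusted p = 3.3e-09). The mean of the osteoblast markers was 11.09 to 11.16 in the WT P18-cochlea, against 8.33 to 9.58 in the WT P5-OC. All 6 were called higher, where 25.0% of all genes were. *Panx3* was higher by 2.18 in WT (adjusted p = 0.010). The part of bone in the difference of *Gja1* was not tested.

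*Gjb6* was higher by 1.26 in WT, or 2.39-fold (SE 0.10, limma adjusted p = 4e-08), and by 1.39 in Tg1MDW/1MDW (adjusted p = 1.4e-08), with no overlap of the ages. *Gjb2* did not pass, with a difference of 0.10 in WT (adjusted p = 0.44) and 0.21 in Tg1MDW/1MDW (adjusted p = 0.078). With each array centred on its median, *Gjb2* passed at 0.29 in WT (adjusted p = 0.019) and 0.43 in Tg1MDW/1MDW (adjusted p = 0.0015). Other cochlear gene lists differed as well. Of 12 supporting cell markers 10 were called lower in WT, 7 of 8 stria vascularis markers higher with a median of 2.39, and 5 of 8 potassium recycling genes higher. The stria and potassium lists share *Kcnq1*, *Kcne1*, *Atp1b2* and *Kcnj10*. Fibrocyte markers went both ways, with 5 of 10 called lower and 3 higher in WT and a median of -0.37. Over all genes 25.1% were called lower in WT and 25.0% higher. *Kcne1*, a subunit of the potassium channel that secretes into endolymph, rose by 3.85 and its partner *Kcnq1* by 1.51.

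*Gjb1* was higher by 0.62 in WT (SE 0.11, limma adjusted p = 0.00027) and by 0.75 in Tg1MDW/1MDW (adjusted p = 4.8e-05), and *Gjc1* was lower by 0.64 in WT, as a difference of -0.64 (SE 0.10, adjusted p = 5.2e-05). The *Gjc1* difference in Tg1MDW/1MDW was -0.46 (adjusted p = 0.0012), and -0.23 with each array centred on its median (adjusted p = 0.070). *Gja4* did not pass in either genotype, at 0.19 (adjusted p = 0.21) and 0.04 (adjusted p = 0.80). After quantile normalization it passed in both, at 0.42 and 0.36.

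*Gjc3* was the only member whose change between the ages was called as different between the genotypes. It was lower by 3.25-fold in the WT P18-cochlea, as a log2 difference of -1.70 (SE 0.09, limma adjusted p = 3.1e-10), while in Tg1MDW/1MDW the difference was -0.15 (interval -0.34 to 0.04, adjusted p = 0.18). The test of that contrast is the 1.55 given above. After quantile normalization that Tg1MDW/1MDW difference passed, at -0.25 (adjusted p = 0.039). In the same test of the effects between ages 7 of 9 myelin markers were called higher, against 0.818% of all genes. Their median was 1.23, the direction of *Gjc3*. In WT 4 of the 9 were called lower and 2 higher in the P18-cochlea with a median of 0.04, beside the 25.1% and 25.0% of all genes. *Cldn19* was lower by 1.03 (a difference of -1.03), *Egr2* differed by -0.81 and *Mag* by 0.04. In Tg1MDW/1MDW 8 of 9 were called higher with a median of 1.33, where 28.4% of all genes were.

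**Figure D5:**
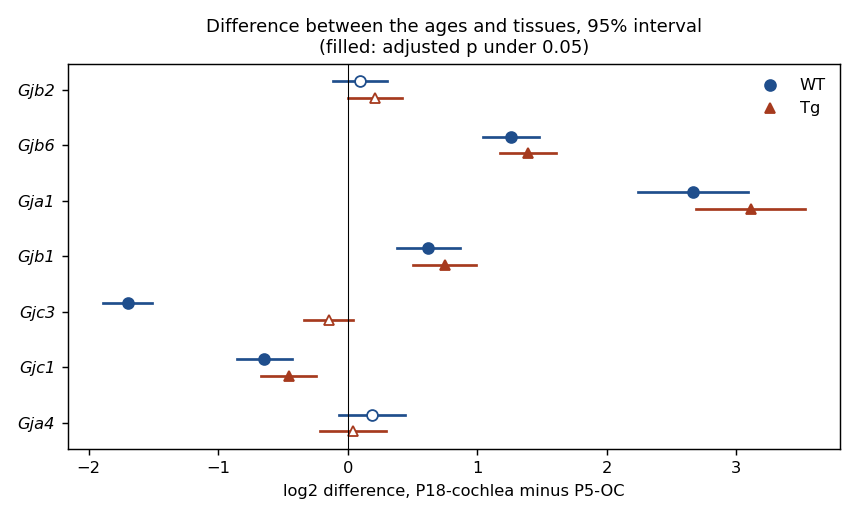
Log2 difference between the P18-cochlea and the P5-OC with its 95% interval for the 7 connexins, circles for WT and triangles for Tg1MDW/1MDW, filled where the adjusted p was under 0.05. *Gja1* and *Gjb6* lie to the right in both genotypes, and *Gjc3* is at -1.70 in WT and -0.15 in Tg1MDW/1MDW.

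Likeness to other genes was measured as Pearson's r over the 10 P5-OC arrays, which share genotypes and dissections, and is given as a description. The genes most like *Gjc3* were *Dag1*, which encodes the laminin receptor dystroglycan of Schwann cells, at 0.989, *Sema3b* at 0.986 and *Csrp2* at 0.985. The arrays of the 2 genotypes lie apart for *Gjc3*, which any gene with such a gap shares. Over the 6 P18-cochlea arrays, r with the same genes was 0.883, 0.804 and 0.740.

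For *Gjb6* the 3 nearest genes were *Vps35* (r = 0.942), *Tlr3* (0.932) and *Tbx18*, a transcription factor of otic fibrocytes (0.922), and r over the P18 arrays was 0.962, 0.880 and 0.997. At P18 the genotypes lay apart for *Gjb6* and also for *Tbx18*, a gap that enters their r. *Tbx18* was 9.51 to 9.61 in Tg1MDW/1MDW and 9.26 to 9.33 in WT there. For *Gja1* they were *Plekhh2* (0.943), *Crtap*, which encodes a collagen-modifying protein of bone (0.937), and *Adamtsl3* (0.935), with 0.849, -0.787 and -0.227 at P18. The genes nearest to *Gjb2* were *Gatc*, *Romo1* and *1810058I24Rik* at 0.961 to 0.968, and at P18 their r was between -0.363 and 0.477. Those nearest to the dim or little varying *Gjb1* (*Mir448*, *Gzmg*, *Cd70*), *Gjc1* (*Olfr1436*, *Atp5l*, *Rpp40*) and *Gja4* (*Tspyl3*, *Xkr8*, *C030006K11Rik*) had r of 0.870 to 0.966 at P5 and of -0.901 to 0.846 at P18.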

How the data were processed

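The authors deposited normalized log2 signals of 34760 probesets for 16 arrays, with values from 2.09 to 13.72. Background correction, normalization and probe summary are not given in the sources used here, and the submitters' processing notes name limma. Nothing further was normalized. Samples were grouped by title (P5 and P18). Other label fields give 5.5 and 18.5 days and conflict with the titles in age, tissue and genotype. One linear model with 4 group means (limma 3.58.1 in R 4.3.3, moderated variances, 12 degrees of freedom from the residuals and 3.23 from the prior) gave all contrasts, two-sided and adjusted over all probesets, with no fold limit. Intervals are 95% and unadjusted. The number of arrays limits the precision.

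The platform table gives 1 symbol for 21640 probesets and several for 1321, and a gene was read from its brightest probeset by mean over the arrays. Members and lists were chosen with earlier results of these data known. Named are all 7 members, further connexins and pannexins past the test or in the upper part of the signal range, up to 4 genes of each other list by smallest adjusted p, and the 3 genes most like each member. *Gjd2*, *Sox10*, *Kcne1*, *Kcnq1*, *Gja10*, *Gje1* and *Fabp7* were singled out after their values were seen where that rule did not name them. The fit was tested on simulated data. Promoter and miRNA sequences are from RefSeq (GRCm38.p6). The alternatives tried were the replicate number as a block, 1 fit for each age, removal of dim probesets, other scalings and variance models, a Y-linked covariate, a 1.5-fold limit and each array left out. The omission of replicates 1 and 2 at P5 and the osteoblast covariate were added after the data were seen. Plots used Python 3.11.15 and matplotlib 3.10.9. Some members of the connexin family are not reported here.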

Additional observations from a re-analysis of the deposited data

Results flagged for a closer look

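The genotype effect on *Gjc3* differed between the ages by 1.5517 on the log2 scale, from a fall in the P5-OC to a rise in the P18-cochlea, by limma's test of that difference (adjusted p = 6e-06). In the P5-OC of WT mice, *Panx2* had a log2 signal of 7.175 in replicate 2, set apart from the next value of 7.387. It was 1 of 38 groups of 5 arrays examined for a lone value over the connexins and pannexins, and chance sets apart about 1 in 20.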

How the results depend on the processing

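*Gjc3* kept its direction under all alternatives run for the genotype comparisons: -0.99 to -0.86 at P5 (called in 21 of 21), 0.58 to 0.68 at P18 (16 of 17) and 1.48 to 1.62 for the difference of the effects (26 of 26). No connexin was called at P18 without P18 Tg1MDW/1MDW replicate 3 (0 of 7 members, limma, *Gjc3* adjusted p = 0.052), and leaving out any other array gave 1, so the count ranged from 0 to 1. Over all genes, 1159 were called lower at P5 without P5 Tg1MDW/1MDW replicate 3 and 330 without P5 WT replicate 1, and 113 without P5 WT replicate 5, in place of 171, and 61 to 71 were called higher at P18 without 1 array, in place of 106. For the difference of the effects 354 were called higher without P5 Tg1MDW/1MDW replicate 3 and 96 to 108 without P18 Tg1MDW/1MDW replicate 2 or 3 or P18 WT replicate 1 or 2, in place of 163. With a replicate block, *Gjc3* was the 1 member called at P5 (-0.92, adjusted p = 0.00048) and at P18 (0.63, adjusted p = 0.03). Same-numbered samples correlated at -0.224 to 0.36 at P5 and 0.0 to 0.069 at P18, and 4 of 10 P5 samples correlated best with their own number, so the numbers were not taken to pair the samples.

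Of single values, 18 changed sign, none of them called, and none was larger than 0.09. Quantile normalization turned *Gja4* at P5 to -0.024, and centring on the median turned *Gjc3* between the ages in Tg1MDW/1MDW to 0.0741. Array weights turned *Gjb2* at P5 to -0.002, *Gjc1* at P5 to -0.0276 and *Gjb1* at P18 to -0.007. The Y-linked covariate turned *Gjb2*, *Gjc1* and *Gja4* at P5 to -0.0414, -0.0868 and -0.0333. Leaving out single arrays gave ranges of -0.0429 to 0.0924 for *Gjb2*, -0.0334 to 0.0858 for *Gjb6*, -0.0501 to 0.0552 for *Gjc1* and -0.035 to 0.1148 for *Gja4* at P5, with -0.005 to 0.0744 for *Gjb1* at P18 and -0.0119 to 0.0724 for *Gja4* between the ages in Tg1MDW/1MDW. The causes were not tested. The mean over several probesets was not run, since each member has 1.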
